A study of Mus musculus with 60 samples.

Results

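The semaphorin family and its receptors were followed through the embryonic mouse brain: 20 semaphorin genes, 9 plexin genes and the 2 neuropilin genes, 31 genes in all. They were chosen by family name from the 24378 features of the deposited expression table, and every one of the 31 has a row there. The libraries are bulk RNA sequencing of tissue pieces from TH-GFP embryos, a line in which a green reporter marks cells that use the promoter of tyrosine hydroxylase, the rate-limiting enzyme of dopamine synthesis. Pieces were dissected under the light of that reporter on 4 consecutive days of gestation, embryonic day E11.5 through E14.5, from the ventral midbrain, dorsal midbrain, ventral forebrain, ventral hindbrain and alar plate. All 20 groups carry the same genotype, no group was treated, and each has 3 libraries, 60 in all. The ventral midbrain piece was cut as floor and basal plate domains M3 to M7, so it holds progenitors and several neuron types and not dopaminergic neurons alone.

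Semaphorins are guidance proteins that turn, repel or attract growing axons and migrating cells. Class 3 semaphorins are secreted and mostly bind a neuropilin, which holds no signalling domain of its own and passes the signal through a class A plexin. Semaphorins of classes 4 to 6 span the membrane and class 7 is held on it by a lipid anchor, and these bind plexins directly. Plexins act inside the cell through a domain that switches off small GTPases, and the growth cone then collapses or turns. In the ventral midbrain the family is known for steering the axons of dopaminergic neurons toward the forebrain.

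At E12.5 and E13.5 the members called between regions were the receptors Nrp2, Plxna2 and Plxna4 and the ligand Sema3a. The 250 bases before the RefSeq transcription start are shown for Nrp2, Plxna2 and Sema3a, those of the 4 with an entry in the promoter table (RefSeq on GRCm38.p6, plus strand). They cover chr1:62703067-62703316 for Nrp2, chr1:194619579-194619828 for Plxna2 and chr5:13396534-13396783 for Sema3a. The GENCODE genes of Plxna2 and Sema3a start upstream of these windows, and that of Nrp2 starts inside its window. Capitals mark the GC box letters GGGCGG or, for the other strand, CCGCCC, and overlapping boxes run together.
Nrp2: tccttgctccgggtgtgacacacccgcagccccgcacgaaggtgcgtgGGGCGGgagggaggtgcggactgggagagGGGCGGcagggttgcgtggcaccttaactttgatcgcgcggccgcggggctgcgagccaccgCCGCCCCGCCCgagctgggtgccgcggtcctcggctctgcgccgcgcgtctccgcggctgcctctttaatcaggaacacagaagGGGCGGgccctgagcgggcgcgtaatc
Plxna2: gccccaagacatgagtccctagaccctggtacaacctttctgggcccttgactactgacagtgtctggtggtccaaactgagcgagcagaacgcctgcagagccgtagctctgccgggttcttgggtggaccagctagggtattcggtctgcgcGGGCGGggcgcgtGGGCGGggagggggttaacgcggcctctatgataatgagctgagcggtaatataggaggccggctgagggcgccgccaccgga
Sema3a: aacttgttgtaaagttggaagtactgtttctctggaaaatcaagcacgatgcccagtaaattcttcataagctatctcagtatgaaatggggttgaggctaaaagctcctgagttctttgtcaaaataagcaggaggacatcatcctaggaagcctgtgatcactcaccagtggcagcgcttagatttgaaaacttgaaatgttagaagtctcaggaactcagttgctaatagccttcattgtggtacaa

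The windows differ in composition. That of Nrp2 was 72.4% G and C with 32 CpG dinucleotides and 5 GC boxes, and that of Plxna2 was 62.8% G and C with 18 CpG and 2 boxes. The Sema3a window held 40.8% G and C, 2 CpG and no GC box, against medians of 52.4% and 6 CpG over all 32851 promoter windows. Sequences were found for 26 of the 31 genes, which have 37 windows because some have several starts. A GC box on either strand was present in 27 of those 37 windows and in 32.7% of all windows. The forkhead letters TGTTTAC and the homeodomain letters TAATTA were in 0 of the 37 (3.17% and 4.84% of all windows), and the E-box CAGATG in 2 (14.4% of all windows). These are letter matches on both strands, and they show no binding.

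Depth and dissection set what can be read from each stage. Read totals recovered from the table were greatest at E13.5 (4973179 to 23581725 reads per library) and E12.5 (8671033 to 13098974). E11.5 libraries held 1580061 to 6431836 reads, and those of E14.5 held 979197 to 6130311. At E11.5, 8 of 15 libraries correlated best with another region of the same stage, at E12.5 3 of 15 (all alar plate), and at E13.5 and E14.5 0 of 15. Regions were therefore compared at E12.5 and E13.5 together, where all regions of a stage share 1 library name prefix, and E11.5 values are given as levels. At E12.5, alar plate replicate 3, ventral forebrain replicate 1 and dorsal midbrain replicate 3 stood apart from their groups in genes named below, and results that rest on them are given with and without them. Over E12.5 and E13.5, all 7 ventral midbrain markers were higher in ventral midbrain, all 6 dorsal markers in dorsal midbrain, all 5 tested hindbrain markers in ventral hindbrain, 5 of 6 dorsal markers in alar plate and 4 of 6 forebrain markers in ventral forebrain. The forebrain and hindbrain labels were unclear at E12.5. Forebrain markers summed to 35.5 RPKM in ventral forebrain and 30.1 in alar plate, and dorsal markers to 130.5 in ventral forebrain beside 266.8 in alar plate. Hindbrain markers summed to 12 RPKM in ventral hindbrain (1.04 to 24.7 over its libraries) and 10.25 in ventral midbrain (8.78 to 11.2). Of the 5 tested hindbrain markers, 1 was also higher in ventral midbrain over E12.5 and E13.5, and 0 were lower. Nothing in the labels ties the 3 replicates to separate embryos, and p-values here reflect only how far those replicates spread, which may be technical. Counting error alone would give a mean chi-square per feature of about 1 between replicates. It was 1.12 for replicates 3 and 4 of ventral midbrain at E14.5, and up to 101.2 elsewhere (alar plate E12.5, replicates 1 and 3). In bulk tissue, fewer cells that express a gene and less RNA per cell cannot be told apart.

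Most of the family was expressed throughout. The values are RPKM, reads scaled to transcript length and library total. They were set side by side between genes, which relies on the deposited transcript length of each gene, and those lengths were not checked. The median over the 60 libraries reached 1 RPKM for 27 of the 31 genes (87.1%, against 52.4% of all features) and 10 RPKM for 15 (48.4%, against 27.9%). The receptors led: Plxna1 had a median of 54.9 RPKM, Plxnb1 47.3, Plxnb2 46.3 and Plxna3 38.8. The most abundant ligands were the transmembrane semaphorins Sema6c at 32.7, Sema4g at 28.5, Sema4c at 26.6 and Sema5b at 22.6 RPKM, and among secreted ligands Sema3f at 16.9 RPKM. The other 6 class 3 ligands had medians from 0.453 (Sema3d) to 4.51 RPKM (Sema3c). Plxnb3, a class B plexin, had a median of 0.0569 RPKM and a highest group mean of 0.211, and it was the only member below the expression filter of 1 RPKM in any group.

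The range across groups was widest for Sema3a (44.6-fold), Sema5a (16.1-fold), Nrp2 (12.1-fold) and Sema3d (10.6-fold). Plxnb2 group means spanned 1.60-fold (36.7 to 58.8 RPKM), Plxnb1 1.89-fold and Plxna1 2.18-fold. Nrp2 ran from 3.81 ± 0.63 RPKM (SD, n = 3) in dorsal midbrain at E13.5 to 46.2 ± 0.54 in ventral midbrain at E12.5. The lowest group mean of Sema3a was 0.212 RPKM (dorsal midbrain, E14.5) and its highest 9.47 (ventral hindbrain, E14.5). These groups carry different library name prefixes. Sema5a reached its highest mean, 11.9 RPKM in ventral forebrain at E12.5, through 1 of 3 libraries. The highest Sema3d mean, 2.25 ± 2.07 RPKM in ventral midbrain at E11.5, came from uneven libraries. Its lowest was 0.213 RPKM in alar plate at E13.5, so the folds of Sema3a and Sema3d divide by low values.

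**Figure D1:**
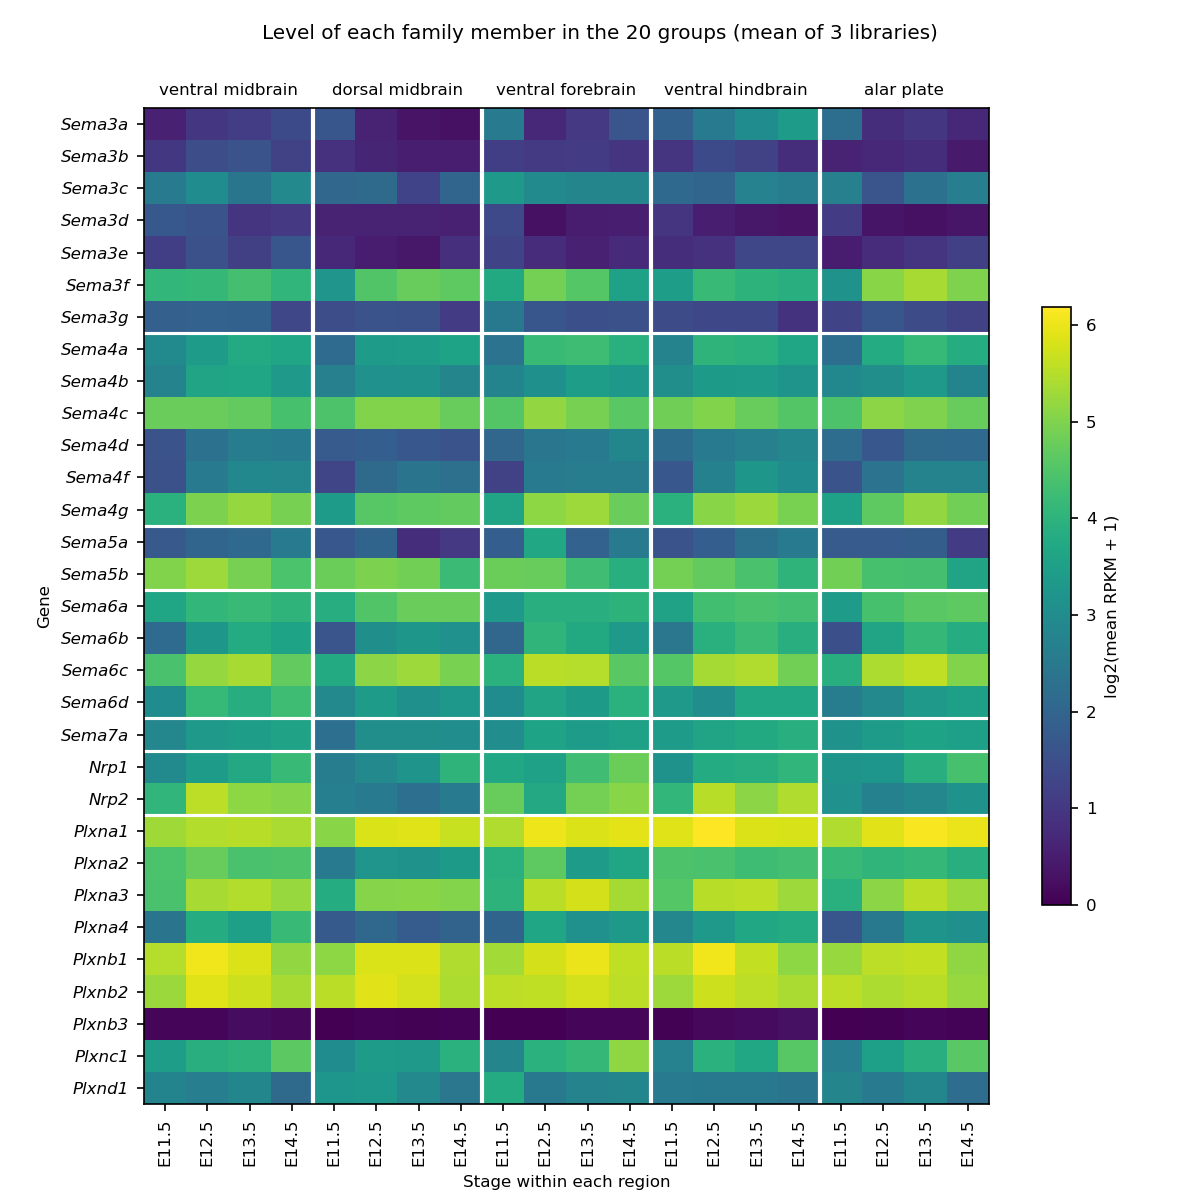
Heat map of the mean RPKM of 3 libraries, as log2(mean RPKM + 1), for the 31 genes (rows, grouped by class) in the 20 groups (columns, 4 stages within each region). Nrp2 runs from 3.81 RPKM in dorsal midbrain to 46.2 RPKM in ventral midbrain, Sema3a is highest in ventral hindbrain from E12.5 on, and the Plxnb1 and Plxnb2 rows stay within 1.89-fold and 1.60-fold.

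To find which members mark a region, it was set against the other 4 regions, averaged, at E12.5 and E13.5. A member is called higher or lower where the Benjamini-Hochberg adjusted p of limma over all 13994 features tested was below 0.05 and the fold on the log2(RPKM + 1) scale was at least 2, and that scale understates the fold of low genes. Of 30 members tested, 1 was higher in ventral midbrain and 0 lower, where 2.84% of all features tested were called (2.27% higher, 0.572% lower). In dorsal midbrain 0 were higher and 3 lower, where 6.25% of features were called (3.1% higher, 3.15% lower). In ventral forebrain 0 were called, where 0.95% of features were (0.407% higher, 0.543% lower), and 3704 features of all kinds had an unadjusted p below 0.05. In ventral hindbrain 2 were higher and 0 lower, where 2.77% of features were called (1.72% higher, 1.06% lower). In alar plate 0 were higher and 1 lower, where 1.07% of features were called (0.493% higher, 0.579% lower). The pseudocount of 1 matters for low genes. With a pseudocount of 0.1, 4 members were higher in ventral midbrain (4.3% of features), 8 lower in dorsal midbrain (6.95%), 2 higher in ventral hindbrain (3.72%) and 1 lower in alar plate (1.59%). With voom, limma's weighted fit on log-scaled recovered reads, the counts were 4 (4.72%), 8 (7.35%), 2 (4.24%) and 2 (1.57%). In dorsal midbrain both added Sema3a, Sema3b, Sema3c, Sema3e and Sema5a to the 3. The 5 comparisons use the same 30 libraries, each region serving as control for the others, so they are not independent of each other.

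The adjusted p limit alone, with no fold limit, was reached by more members. In ventral midbrain these were 11 with positive and 4 with negative differences (15.7% and 13.8% of all features), and in dorsal midbrain 4 and 19 (32.3% and 28.2%). In ventral forebrain they were 6 and 3 (5.72% and 8.17%), in ventral hindbrain 11 and 2 (19.4% and 20.2%), and in alar plate 2 and 8 (5.27% and 8.35%). The median log2 difference over the 30 members was -0.46 in dorsal midbrain, where that of all features was 0.03. It was 0.16 in ventral midbrain, 0.18 in ventral hindbrain, 0.10 in ventral forebrain and -0.13 in alar plate, and the medians of all features there lay within 0.02 of 0.

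**Figure D2:**
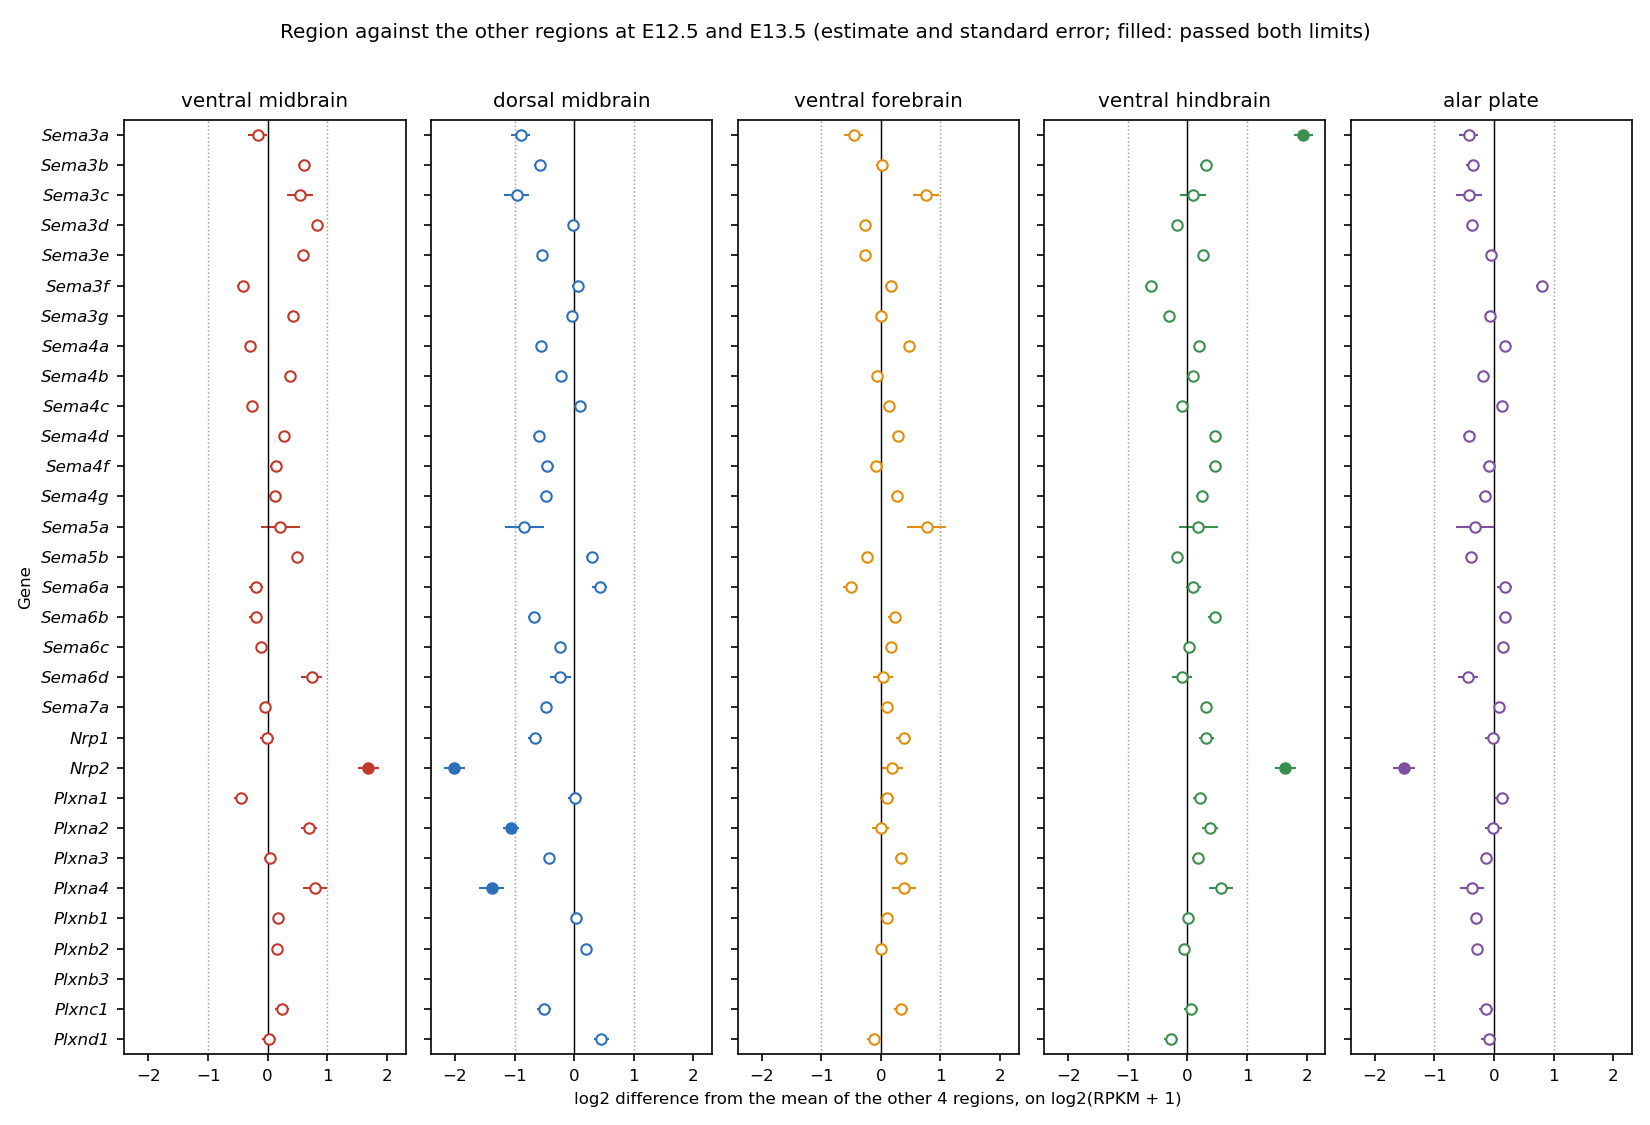
Log2 difference of each region from the mean of the other 4 regions at E12.5 and E13.5, on log2(RPKM + 1), for each gene (rows), with bars for the standard error; filled points passed both limits and dotted lines mark the fold limit of 2. Nrp2 is filled in 4 of the 5 panels, positive in ventral midbrain (1.69) and ventral hindbrain (1.64) and negative in dorsal midbrain (-2.01) and alar plate (-1.51).

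Nrp2, the neuropilin that binds Sema3f and Sema3c, separated ventral from dorsal tissue (chr1:62703285-62818695, plus strand, GENCODE on GRCm38). In ventral midbrain it stood at 46.8, 46.2 and 45.7 RPKM at E12.5 and 30.7, 32.1 and 39.2 at E13.5. In ventral hindbrain it stood at 43.3, 43.2 and 48.9 RPKM at E12.5 and 34.1, 40.1 and 25.8 at E13.5. The ventral midbrain and ventral hindbrain values overlapped at each stage. In dorsal midbrain the values were 3.65, 4.59 and 6.06 RPKM at E12.5 and 4.53, 3.37 and 3.53 at E13.5, and in alar plate 5.53, 4.87 and 6.17, then 7.29, 5.39 and 6.27. Every dorsal midbrain and alar plate library lay below every ventral midbrain and ventral hindbrain library of these stages. The share of all features that separate so was not counted. Nrp2 was higher in ventral midbrain by 1.69 ± 0.18 (log2, SE; adjusted p = 9.9e-08; mean 40.1 RPKM against 17.4) and in ventral hindbrain by 1.64 ± 0.18 (adjusted p = 2.77e-07; 39.3 against 17.7). It was lower in dorsal midbrain, with a log2 difference of -2.01 ± 0.18 (adjusted p = 6.04e-09; 4.29 RPKM against 26.4), and in alar plate, with -1.51 ± 0.18 (adjusted p = 2.51e-06; 5.92 against 26.0).

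Ventral forebrain was uneven for Nrp2. Its E12.5 libraries held 4.25, 10.4 and 21.9 RPKM, and its E13.5 libraries 32.8, 17.2 and 35.5. The lowest of these is replicate 1 of E12.5, in which Foxa2, a floor plate transcription factor, stood at 0.143 RPKM against a highest value of 21.5 in that group. By E14.5 the 3 ventral forebrain libraries were 35.2, 31.2 and 33.0 RPKM, within the range of ventral midbrain (28.1, 32.9 and 36.5). At the same stage ventral hindbrain held 27.9, 53.2 and 46.8 RPKM, alar plate 10.99, 6.69 and 6.61, and dorsal midbrain 4.96, 5.38 and 3.83. The 3 ventral regions overlapped at E14.5, and all 9 of their libraries were above all 6 dorsal midbrain and alar plate libraries. At this stage ventral and dorsal midbrain share a library name prefix, and the other regions share another. Between those sets region and prefix cannot be told apart, so these E14.5 values are given as levels. At E11.5 the ventral midbrain libraries were 23.6, 1.82 and 21.9 RPKM, and the library at 1.82 is one of the 8 that correlated best with another region.

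Nrp1, the neuropilin that binds Sema3a and is also a receptor for vascular growth factor, did not pass both limits in any region. Its group means ran from 6.54 to 12.9 RPKM at E12.5 and from 8.18 to 18.7 at E13.5. The dorsal midbrain difference of -0.66 ± 0.12 reached the adjusted p limit but not the fold limit (adjusted p = 8.32e-05), as did those of ventral forebrain (0.38) and ventral hindbrain (0.32).

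**Figure D3:**
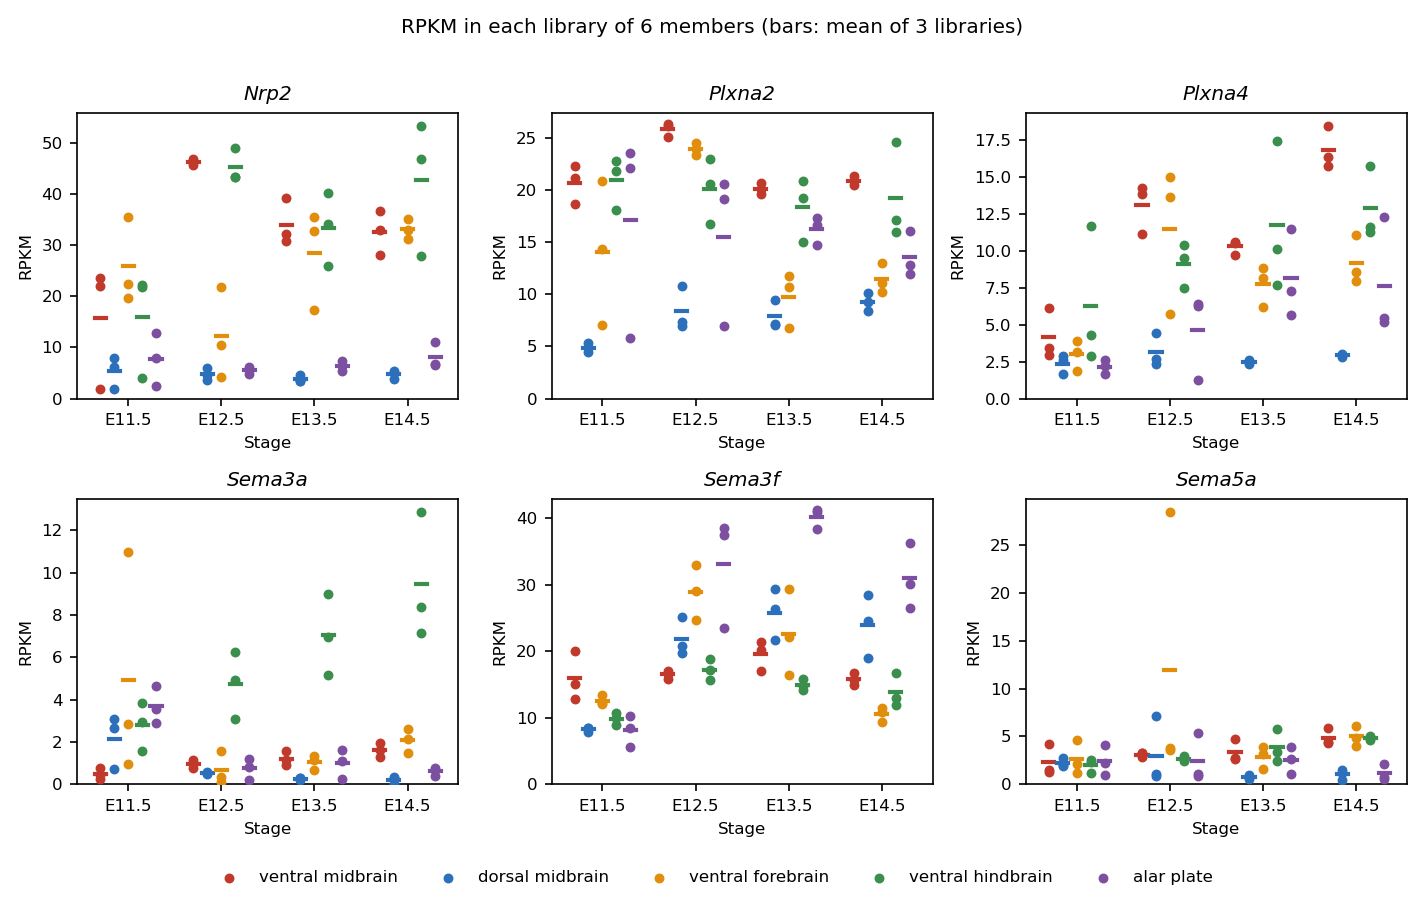
RPKM of 6 members in each of the 60 libraries (points, coloured by region) at the 4 stages, with bars for the mean of 3 libraries; each panel has its own axis from 0. Nrp2 forms a high ventral band and a low band of dorsal midbrain and alar plate from E13.5 on, Sema3a is highest in ventral hindbrain from E12.5, and 1 ventral forebrain library at E12.5 stands at 28.5 RPKM for Sema5a.

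Among class A plexins, which carry the signal for neuropilins and for class 6 ligands, Plxna2 and Plxna4 were lower in dorsal midbrain. Plxna2 (chr1:194618218-194816869, plus strand) stood there at 7.34, 6.95 and 10.8 RPKM at E12.5 and 9.46, 7.14 and 7.04 at E13.5. In ventral midbrain it stood at 26.2, 25.1 and 26.3, then 19.6, 20.7 and 20.1 RPKM. The dorsal values were the lower in every library of the pair. The Plxna2 difference of dorsal midbrain from the other regions was -1.06 ± 0.14 (adjusted p = 9.05e-07; 8.12 RPKM against 18.7). Some other libraries were as low: alar plate replicate 3 of E12.5 held 6.98 RPKM of Plxna2 beside 20.5 and 19.1 in its group, and ventral forebrain at E13.5 held 11.7, 10.7 and 6.81. In ventral midbrain the Plxna2 difference of 0.69 ± 0.14 reached the adjusted p limit but not the fold limit (adjusted p = 0.000514).

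Plxna4 (chr6:32144268-32588192, minus strand) gave 2.36, 2.65 and 4.46 RPKM in dorsal midbrain at E12.5 and 2.49, 2.58 and 2.33 at E13.5. The ventral midbrain held 11.2, 14.3 and 13.9 RPKM of it at E12.5 and 10.6, 9.75 and 10.6 at E13.5. No dorsal value reached the lowest ventral midbrain value. Plxna4 was lower in dorsal midbrain than in the other regions by a log2 difference of -1.39 ± 0.20 (adjusted p = 3.76e-06; 2.81 RPKM against 9.55). The libraries of the 4 other regions were not all higher, since alar plate replicate 3 of E12.5 had 1.25 RPKM. The ventral midbrain difference of Plxna4, 0.80 ± 0.20, missed the fold limit (adjusted p = 0.00454).

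The remaining class A plexins were abundant in every region. Plxna1 had its lowest E12.5 and E13.5 means in ventral midbrain, 43.2 and 44.8 RPKM, beside 56.5 to 71.7 in the other regions. Its ventral midbrain difference of -0.45 ± 0.12 reached the adjusted p limit but not the fold limit (adjusted p = 0.00543). Plxna3, an X-linked receptor of class 3 signalling, differed by 0.42 or less on the log2 scale in every region. At both stages the lowest group mean of Plxna1 was thus in ventral midbrain, and those of Plxna2 and Plxna4 were in dorsal midbrain.

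Of the secreted class 3 ligands, Sema3a, a repellent that acts through Nrp1 and class A plexins, was higher in ventral hindbrain (chr5:13125414-13602565, plus strand; the GENCODE gene starts upstream of the RefSeq start shown above). Ventral hindbrain held 3.10, 6.27 and 4.91 RPKM at E12.5, 9.01, 5.15 and 6.95 at E13.5, and 12.9, 7.15 and 8.38 at E14.5. The 24 libraries of the other regions at E12.5 and E13.5 ran from 0.0751 to 1.61 RPKM of Sema3a, so the sides did not overlap. The Sema3a difference was 1.94 ± 0.16 (adjusted p = 3.07e-09; 5.90 RPKM against 0.794). With voom it was 3.20, since the pseudocount of 1 shrinks low values. At E11.5 the pattern was another, with 2.90 to 4.63 RPKM of Sema3a in alar plate, 1.58 to 3.85 in ventral hindbrain and 0.944, 2.85 and 11 in ventral forebrain. The ventral forebrain library at 11 RPKM had a summed level of 8 meninges and mesenchyme markers of 1285 RPKM, beside 189.2 and 5.2 in the other two. The part of those cells in the Sema3a value was not tested.

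Sema3d, Sema3e and Sema3b were low everywhere and had their highest E12.5 and E13.5 means in ventral midbrain, except that Sema3e was at 1.499 RPKM in ventral hindbrain at E13.5 beside 1.27. Sema3d stood at 2.19, 1.74 and 2.03 RPKM in ventral midbrain at E12.5, while the other 12 libraries of that stage ran from 0.0503 to 0.719. At E13.5 it was 0.668, 0.955 and 1.18 RPKM in ventral midbrain and at most 0.608 elsewhere. Each side of Sema3d therefore stayed apart from the other at both stages. Their ventral midbrain differences reached the adjusted p limit but not the fold limit: 0.82 ± 0.07 for Sema3d (adjusted p = 5.09e-09), 0.60 ± 0.08 for Sema3e (adjusted p = 8.14e-06) and 0.61 ± 0.10 for Sema3b (adjusted p = 7.25e-05). On recovered reads, with voom, they passed both limits at 2.07, 1.21 and 1.17. Sema3d passed the filter on low values at these stages only through ventral midbrain at E12.5, the group in which it is high, so its values are a description and its call supports nothing further. Sema3d, Sema3a, Sema3e and Sema3c lie within 5.35 Mb of chromosome 5, and Sema3b, Sema3f and Plxnb1 within 1.52 Mb of chromosome 9. The neighbours did not share 1 regional pattern: Sema3a was highest in ventral hindbrain and Sema3d in ventral midbrain.

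Sema3c, a ligand of Nrp1 and Nrp2 known to promote axon growth, was uneven in dorsal midbrain. Its E12.5 libraries there held 1.07, 1.01 and 8.18 RPKM and its E13.5 libraries 1.72, 1.15 and 1.23. The high library is replicate 3, one of those that stood apart. With it the Sema3c difference of dorsal midbrain was -0.97 ± 0.22 and did not reach the fold limit (adjusted p = 0.000486), and without the 3 E12.5 libraries it was -1.31 ± 0.15 (adjusted p = 1.61e-07) and did. Ventral midbrain held 7.62, 6.38 and 6.98 RPKM of Sema3c at E12.5 and 5.33, 3.96 and 3.70 at E13.5. Its ventral forebrain difference of 0.76 ± 0.22 missed the fold limit (adjusted p = 0.0203).

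Sema3f, a ligand of Nrp2, had its highest values in alar plate. It stood at 37.5, 38.6 and 23.5 RPKM there at E12.5 and 38.5, 41.2 and 41.0 at E13.5, beside 15.9, 17.0 and 16.6, then 17.0, 21.4 and 20.2 in ventral midbrain. At E13.5 the 3 alar plate libraries were above all 12 others, the highest of which was 29.4 RPKM. The Sema3f difference of alar plate, 0.80 ± 0.10, reached the adjusted p limit but not the fold limit (adjusted p = 3.12e-06). Those of ventral hindbrain (-0.61 ± 0.10, adjusted p = 4.14e-05) and ventral midbrain (-0.41 ± 0.10, adjusted p = 0.002) did so with the other sign. Alar plate, where the receptor Nrp2 was lower, was the region with the highest mean of its ligand Sema3f at these stages. Dorsal midbrain, where Nrp2 was lower too, showed no such Sema3f difference (0.058 ± 0.092 in limma with the replicate block, adjusted p = 0.601). Sema3g, another secreted ligand, had ventral midbrain means of 2.86 and 2.78 RPKM beside 1.52 to 2.16 elsewhere, a difference of 0.43 that missed the fold limit.

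Among the transmembrane ligands no member passed both limits at E12.5 and E13.5. Sema5a, which has both attractive and repellent activity, varied most with single libraries: ventral forebrain at E12.5 held 28.5, 3.55 and 3.75 RPKM, dorsal midbrain 0.864, 1.01 and 7.08, and alar plate 1.08, 0.875 and 5.38. The high library in each is the one that stood apart. The dorsal midbrain difference of Sema5a was -0.84 ± 0.33 (adjusted p = 0.0297), below the fold limit, and -1.001 ± 0.169 (adjusted p = 2.06e-05) without those 3 libraries, at the limit. Without them 5 members were lower in dorsal midbrain instead of 3, Sema3c and Sema5a being added.

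Sema6d, a ligand of Plxna1, had its highest means in ventral midbrain, 16.7 RPKM at E12.5 and 13.54 at E13.5, beside 6.47 to 11.9 elsewhere. Its difference of 0.74 ± 0.17 missed the fold limit (adjusted p = 0.0019). Sema6a, a ligand of Plxna2 and Plxna4, had its highest means in dorsal midbrain (21.5 and 26.2 RPKM) and its lowest in ventral forebrain (13.9 at both stages). Those differences were 0.42 ± 0.12 (adjusted p = 0.00424) and -0.51 ± 0.12 (adjusted p = 0.00605), both within 2-fold. Sema5b, a repellent of class 5, had 37.8 and 28.9 RPKM in ventral midbrain, a difference of 0.50 ± 0.09 (adjusted p = 0.000121). The dorsal midbrain differences of Sema6a and of its receptors Plxna2 and Plxna4 thus had opposite signs, and those of the receptors passed both limits.

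The 6 class 4 ligands stayed within 0.60 on the log2 scale of the other regions in every comparison. Sema4d, the ligand of Plxnb1, had dorsal midbrain means of 2.60 and 2.22 RPKM beside 2.20 to 5.44 elsewhere, a difference of -0.60 ± 0.09 (adjusted p = 5.55e-06). Sema4c, the ligand of Plxnb2, ran between 24.8 and 35.1 RPKM in all groups of these stages. Sema7a, the lipid-anchored ligand of Plxnc1, had its lowest means in dorsal midbrain (7.27 and 7.32 RPKM beside 8.94 to 12.6), a difference of -0.47 ± 0.08 (adjusted p = 2.32e-05), and Plxnc1 itself gave -0.51 ± 0.12 there (adjusted p = 0.000675). Plxnd1, the receptor of Sema3e that is prominent on blood vessels, had its largest difference in dorsal midbrain, 0.45 ± 0.12 (adjusted p = 0.00278). The summed level of 8 endothelial markers was 59.2 and 52.9 RPKM in dorsal midbrain at these stages beside 42.5 to 77.5 elsewhere.

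Marker lists of other cell types were read beside the dorsal midbrain values. Of 8 endothelial, 8 microglia and 6 tested erythroid markers, 0 passed both limits there. Of 9 neural progenitor markers 4 were higher in dorsal midbrain and 0 lower, where 3.1% and 3.15% of all features were. Their summed level was 1667 and 1530 RPKM, beside 893.9 to 1599 in the other regions. Of 8 neuron markers 0 passed both limits, and their sum was 2020 and 2138 RPKM beside 2316 to 2845. At the adjusted p limit alone 6 neuron markers were lower and 0 higher (28.2% and 32.3% of all features), with a median log2 difference of -0.44. Of 6 pericyte markers 0 passed both limits, and at the adjusted p limit alone 5 were lower and 1 higher (median -0.32). Of 8 meninges and mesenchyme markers 5 were higher, with sums of 106.6 and 78.1 RPKM beside 6.31 to 120.4. Their part in the lower Nrp2, Plxna2 and Plxna4 values was not tested. In alar plate, where Nrp2 was also lower, the neuron sum was 2479 and 2567 RPKM and the progenitor sum 1313 and 893.9.

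At E14.5, ventral and dorsal midbrain share a library name prefix and were compared directly. Ventral midbrain replicates 3 and 4 of this stage differed little beyond counting error (chi-square per feature 1.12), so p-values here may be too small. Of 30 members tested 5 were higher in ventral midbrain and 0 lower, where 11.9% of the 13567 features tested were called (7.47% higher, 4.43% lower). The adjusted p limit alone was reached by 12 members with positive and 3 with negative differences (16.5% and 17.2% of features). The median over the members was 0.48 and that of all features -0.05. Of the 5, 3 were receptors. Nrp2 stood at 28.1, 32.9 and 36.5 RPKM in ventral midbrain against 4.96, 5.38 and 3.83 in dorsal midbrain, a log2 difference of 2.55 ± 0.15 (limma, adjusted p = 1.2e-05). Plxna4 stood at 16.4, 18.5 and 15.8 RPKM against 3.01, 2.95 and 2.83, a difference of 2.18 ± 0.14 (adjusted p = 1.8e-05). Plxna2 was at 21.3, 20.5 and 20.9 RPKM against 10.1, 9.29 and 8.42, a difference of 1.09 ± 0.12 (adjusted p = 0.00026). For none of the 3 receptors did the libraries of the regions overlap. How many of all features separate in this way was not counted, so the lack of overlap is a description only.

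The other members higher in ventral midbrain at E14.5 were the ligands Sema5a and Sema3a. Sema5a (chr15:32244810-32696341, plus strand) held 4.44, 4.27 and 5.88 RPKM against 0.431, 1.505 and 1.21, without overlap, a difference of 1.55 ± 0.26 (limma, adjusted p = 0.00251; 2.23 with voom). Sema3a held 1.27, 1.63 and 1.95 RPKM against 0, 0.290 and 0.347, also without overlap. The Sema3a value of 0 is 0 reads in a library where 3 reads would be 0.212 RPKM, and the other dorsal values are 6 and 7 reads. Its difference was 1.11 ± 0.26 (adjusted p = 0.0115; 3.12 with voom), and without dorsal midbrain replicate 2 it fell short of the fold limit at 0.98 (adjusted p = 0.0234). Sema3a entered this test only through ventral midbrain, since its dorsal mean of 0.212 RPKM is below the filter, and the same holds for Sema3b, Sema3d and Sema3e. Their values are a description, and a call of any of them supports nothing further.

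Further ligands reached the adjusted p limit at E14.5 but not the fold limit. Sema6d gave 0.98 ± 0.18 (limma, adjusted p = 0.00382), with 18.1 against 8.89 RPKM, and Sema4d 0.94 ± 0.20 (adjusted p = 0.00681), with 4.77 against 2.02. Sema3c gave 0.93 ± 0.22 (adjusted p = 0.0109), with 6.57 against 3.05 RPKM. On the dorsal side, Sema6a gave -0.74 ± 0.10 (adjusted p = 0.000706), with 15.3 against 26.2 RPKM, and Sema3f -0.56 ± 0.15 (adjusted p = 0.0191), with 15.8 against 24.0. The ligand Sema6a and its receptors Plxna2 and Plxna4 thus had opposite signs here too. With voom 10 members were higher and 0 lower, where 10% of features were higher: Sema6d, Sema3c, Sema4d, Sema3b and Sema3e joined the 5. Of these 10, Sema3a, Sema3b and Sema3e passed the filter only through ventral midbrain, so they add no support to the count. With a pseudocount of 0.1 they were 9, where 9.19% of features were higher.

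Between these regions at E14.5, 1 of 8 neuron markers was higher in ventral midbrain and 0 lower (sums of 2770 against 2279 RPKM). Of 9 progenitor markers 1 was higher and 4 lower (1263 against 1107), and the higher one was Fabp7. Of 7 meninges and mesenchyme markers tested of 8, 0 were higher and 3 lower (6.90 against 85.7). Replicate 2 of dorsal midbrain held a meningeal sum of 7.7 RPKM, replicate 3 167.6 and replicate 4 81.8, while Nrp2 was 4.96, 5.38 and 3.83 in them. The part of these markers in the differences was not tested.

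**Figure D4:**
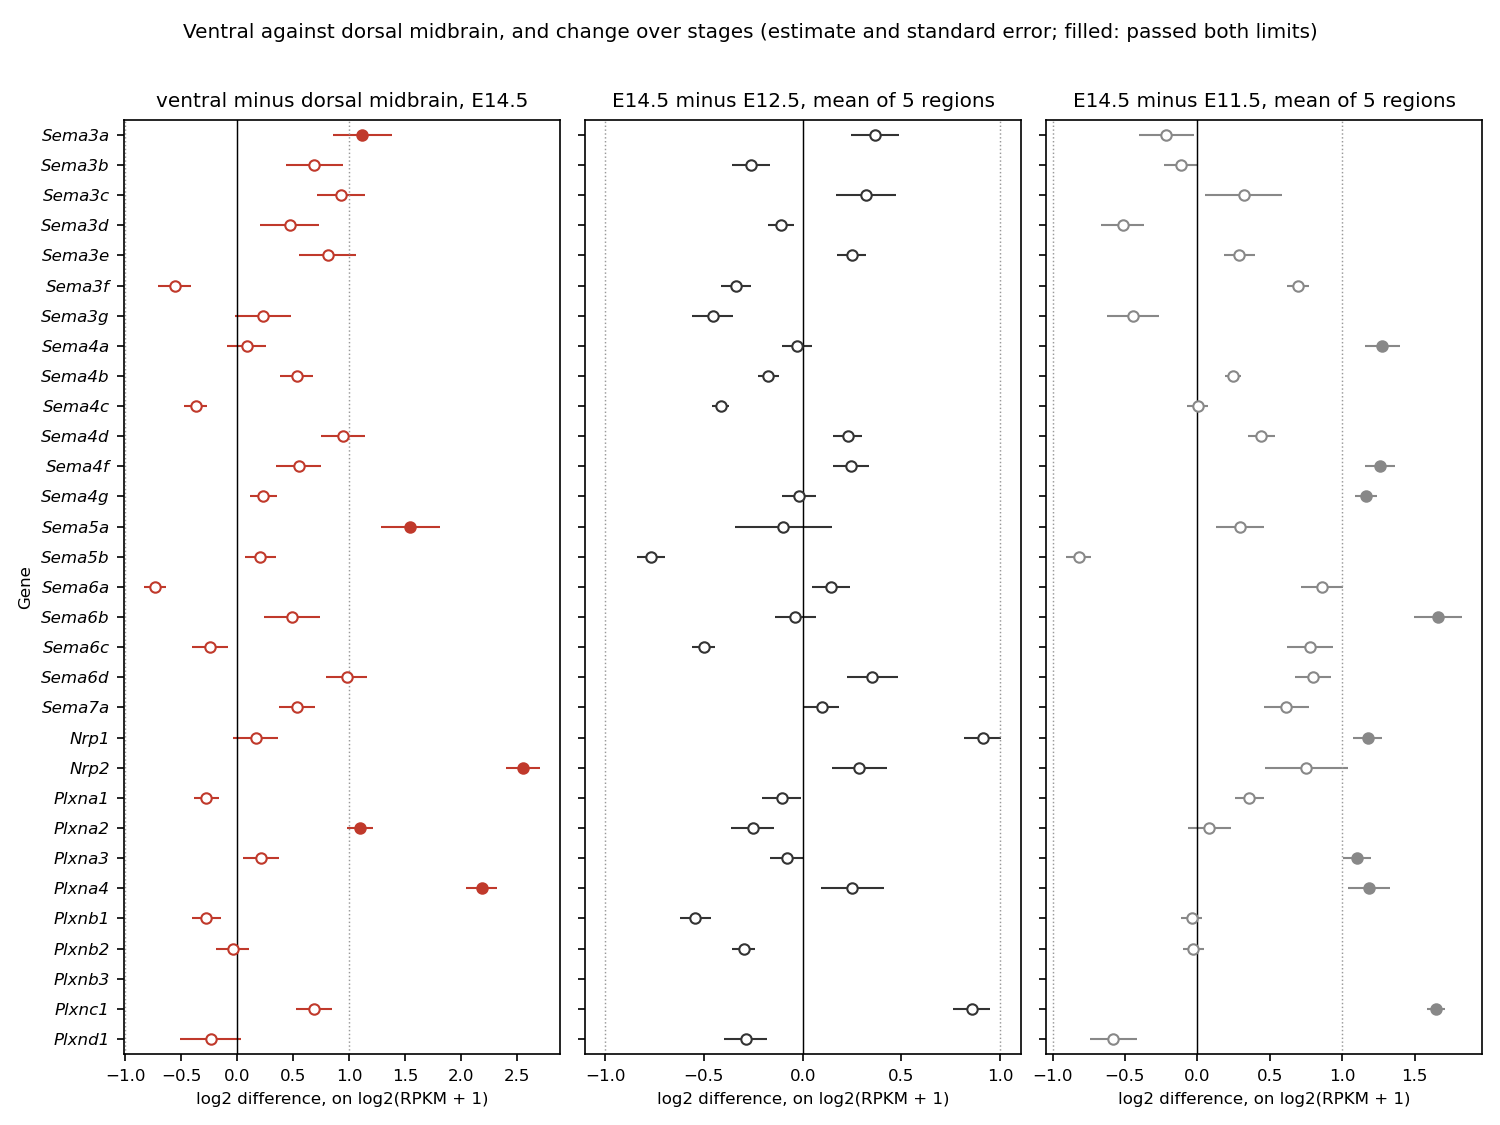
Log2 differences on log2(RPKM + 1), with standard errors, of ventral minus dorsal midbrain at E14.5 (left), E14.5 minus E12.5 over the mean of 5 regions (middle) and E14.5 minus E11.5 (right); filled points passed both limits and dotted lines mark the fold limit of 2. Nrp2 (2.55), Plxna4 (2.18), Sema5a (1.55), Sema3a and Plxna2 are filled on the left, none in the middle and 8 members on the right.

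Stages were compared over the mean of the 5 regions. Stages E12.5 and E14.5 share no library name prefix, so stage and prefix cannot be told apart in this comparison. From E12.5 to E14.5, 0 of 30 members tested passed both limits, where 0.893% of the 14227 features tested did in limma (0.394% higher, 0.499% lower) and 7774 had an unadjusted p below 0.05. With voom, 0 members passed as well. The adjusted p limit alone was reached by 7 members with positive and 10 with negative differences (23.7% and 24.3% of features). The nearest to the fold limit were receptors on the positive side and a ligand on the negative side.

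Nrp1 came nearest, with a difference of 0.91 ± 0.09 (limma, adjusted p = 8.72e-08). Its group means at E12.5 were 6.54 RPKM in dorsal midbrain, 8.48 in alar plate, 9.72 in ventral midbrain, 10.6 in ventral forebrain and 12.9 in ventral hindbrain. At E14.5 they were 15.3, 19.8, 16.9, 26.9 and 15.9 RPKM in the same order, above the E12.5 mean in all 5 regions. Plxnc1, the receptor of Sema7a, gave 0.85 ± 0.09 (adjusted p = 1.56e-07), from 9.49 to 14.45 RPKM in dorsal midbrain and from 14.6 to 34.5 RPKM in ventral forebrain. Sema5b gave -0.77 ± 0.07 (adjusted p = 2.22e-08): its means were 37.8 RPKM in ventral midbrain, 30.1 in dorsal midbrain and 19.9 in alar plate at E12.5, and 20.5, 17.7 and 11.3 at E14.5. The E14.5 mean of Sema5b was the lower in all 5 regions. Of 9 progenitor markers 0 were higher and 4 lower at E14.5. Of 8 neuron markers 0 passed both limits, and at the adjusted p limit alone 5 were higher and 1 lower (23.7% and 24.3% of all features). The part of both marker lists in these values was not tested.

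Against E11.5, 8 members were higher at E14.5 and 0 lower, where 8.23% of the 14590 features tested were higher. They were the ligands Sema6b (1.66), Sema4a (1.28), Sema4f (1.26) and Sema4g (1.17), and the receptors Plxnc1 (1.65), Plxna4 (1.18), Nrp1 (1.18) and Plxna3 (1.10), with adjusted p in limma from 1.3e-15 for Plxnc1 to 1.32e-07 for Plxna4. Sema6b group means were 1.84 to 4.45 RPKM at E11.5, 7.41 to 15.6 at E12.5 and 7.70 to 13.8 at E14.5. Sema4g means were 9.52 to 14.49 RPKM at E11.5 and 23.0 to 34.0 at E12.5. The levels of both at E12.5 thus already covered the E14.5 values. Here 1 name prefix is shared between E11.5 dorsal midbrain and the E14.5 forebrain, hindbrain and alar plate libraries, and within a region the prefixes of both stages differ. This comparison takes in the E11.5 libraries, 8 of which correlated best with another region, and neuron markers were summed there to between 353.9 RPKM (alar plate replicate 4) and 2694 (ventral hindbrain replicate 4). Their part in the stage differences was not tested.

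Whether the ventral to dorsal difference in midbrain changed from E12.5 to E14.5 was tested as a difference of differences. For 0 of 30 members did it pass both limits or the adjusted p limit alone (0.188% of features positive, 0.267% negative) in limma, where 0.317% of the 13860 features tested passed both (0.159% in each direction) and 1789 had an unadjusted p below 0.05. The largest value was that of Sema5a, 1.16 ± 0.63 (adjusted p = 0.477), followed by Sema3a with 0.75 ± 0.25 (adjusted p = 0.217). For Nrp2 the groups were 46.2 and 4.77 RPKM at E12.5 and 32.5 and 4.72 at E14.5.

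The pathway beyond the family was read from a list of 12 co-receptors and other receptors and 32 intracellular effectors, of which Arhgap35 was not found in the table. Among effectors, the proteins that act below plexins inside the cell, 0 of 30 tested were called in any of the 5 regions at E12.5 and E13.5. Of all features, 0.95% to 6.25% were called there. At the adjusted p limit alone, 6 effectors were higher and 12 lower in dorsal midbrain (32.3% and 28.2% of features). They were 7 and 5 in ventral hindbrain (19.4% and 20.2%) and 2 and 3 in ventral midbrain (15.7% and 13.8%). In ventral forebrain they were 4 and 4 (5.72% and 8.17%), and in alar plate 4 and 0 (5.27% and 8.35%). At E14.5, 0 of 29 effectors were higher and 1 lower in ventral midbrain, where 7.47% and 4.43% of all features were. The lower one was the actin regulator Fhod1 (0.733 against 2.83 RPKM), a call lost without dorsal midbrain replicate 3 or 4. The adjusted p limit alone was reached there by 5 with positive and 5 with negative differences (16.5% and 17.2% of features). From E12.5 to E14.5, 0 of 31 effectors passed both limits, where 0.893% of all features did. The adjusted p limit alone was reached by 6 with positive and 8 with negative differences (23.7% and 24.3% of features). Of the 12 co-receptors, 2 were higher and 1 lower in dorsal midbrain (3.1% and 3.15% of features). They were 0 and 1 in ventral midbrain (2.27% and 0.572%) and 1 and 1 in ventral hindbrain (1.72% and 1.06%). In alar plate they were 1 and 0 (0.493% and 0.579%), and in ventral forebrain 0 and 0. At the adjusted p limit alone they were 7 and 1 in ventral midbrain (15.7% and 13.8%) and 4 and 4 in dorsal midbrain. They were 3 and 2 in ventral hindbrain, and 1 and 4 in both ventral forebrain and alar plate. The adhesion molecules Cntn2 and Chl1 moved between regions. Chl1, a partner of neuropilins in class 3 responses, was lower in dorsal midbrain by a log2 difference of -2.86 ± 0.24 (limma, adjusted p = 2.1e-09; 8.31 RPKM against 54.0) and higher in ventral hindbrain by 1.30 ± 0.24 (adjusted p = 0.000197). At E14.5 it stood at 107 RPKM in ventral against 18.7 in dorsal midbrain, a difference of 2.58 ± 0.32 (adjusted p = 0.000581). Chl1 therefore had the signs of Nrp2, Plxna2 and Plxna4 in dorsal midbrain.

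Cntn2, an adhesion molecule of early axons, had the opposite signs. It was higher in dorsal midbrain by 1.996 ± 0.168 (limma, adjusted p = 2.7e-09; 121.8 RPKM against 37.8) and in alar plate by 1.13 ± 0.17 (adjusted p = 5.18e-05), a call lost without alar plate replicate 2 of E12.5 (0.997) and over all 4 stages (0.89). It was lower in ventral midbrain, at -1.44 ± 0.17 (adjusted p = 4.31e-07; 17.6 against 63.8), and in ventral hindbrain, at -1.48 ± 0.17 (adjusted p = 4.97e-07; 17.5 against 63.9), the last not called over all 4 stages (-0.88). At E14.5 ventral midbrain held 9.24 RPKM of Cntn2 and dorsal midbrain 103 (-3.35 ± 0.10, adjusted p = 3.09e-07). Met, a receptor tyrosine kinase that can join class B plexins, was higher in dorsal midbrain at the fold limit (1.002; 2.39 RPKM against 0.727). That call was lost in 12 of 30 fits that left out 1 library, over all 4 stages and with median-of-ratios scaling. Met and Fhod1, both under 5 RPKM, were named after their values were seen.

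Ligands and receptors known to bind each other were set side by side over the 20 group means, as a description. Group means share regions and stages, and those of E11.5 rest on uneven libraries. The Spearman correlation was 0.61 for Sema7a with Plxnc1 and 0.54 for Sema3c with Nrp2. It was -0.45 for Sema3e with Plxnd1, and -0.34 for each of Sema3f with Nrp2, Sema5b with Plxna3 and Sema6a with Plxna2. For Sema3a with Nrp1 it was 0.17, and for Sema6a with Plxna4 0.09. For Sema4c with Plxnb2 it was 0.32, for Sema4d with Plxnb1 0.20, for Sema6d with Plxna1 0.10 and for Sema5a with Plxna1 0.07. Of the 12 pairs, 8 had positive and 4 negative values.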

How the data were processed

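Total RNA libraries of tissue pieces were sequenced, 60 libraries in all, and the deposited table holds RPKM values that the authors computed per feature and library. Alignment used Bowtie and mm10, as listed per the submitters' processing notes. For the Bowtie version, the counter, the annotation, filters and strand, details are not given in the sources used. Whole reads were recovered from the RPKM steps (100.0% of values whole within 0.001), which gave each library's depth and the level of 3 reads. The floors of 3 reads cover counting error only, and the SD and SE values cover the spread between libraries. No column was left without a sample (0).

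Groups come from the sample labels. Features with a mean of at least 1 RPKM in any group of a comparison were fitted as log2(RPKM + 1) with limma 3.58.1 (trend) in R 4.3.3 across all features, without a block, and p-values were adjusted by Benjamini-Hochberg. A call needed an adjusted p below 0.05 and a log2 difference of at least 1. Overlap between the libraries of the sides is given per gene as a description, and its share over all features was not counted. The fits were tested on simulated data. Alternatives were a pseudocount of 0.1, no filter, no fold limit, a replicate block, other stages and each library left out. Chosen after seeing the data were voom on recovered reads, median-of-ratios scaling and leaving out 3 E12.5 libraries.

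The members and gene lists were chosen with earlier results of these data known. Every called member was named, others only to complete a ligand and receptor pair or a subfamily, and pathway genes up to 3 a comparison by smallest adjusted p among those called with 5 RPKM in a group. Gene positions are from GENCODE release 21 and promoters from RefSeq, both on GRCm38.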

Additional observations from a re-analysis of the deposited data

Results flagged for a closer look

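For Cntn2 the ventral minus dorsal midbrain difference changed between stages. Its group means were 41.7, 114, 130 and 103 RPKM in dorsal midbrain from E11.5 to E14.5 and 38.7, 21.5, 13.7 and 9.24 RPKM in ventral midbrain. The difference of differences from E12.5 to E14.5 was -1.01 ± 0.18 on the log2 scale (limma, adjusted p = 0.0432). The call was lost in all 12 fits that left out 1 library (-1.09 to -0.87) and in 5 of 7 other settings, among them the replicate block (adjusted p = 0.0656) and voom (adjusted p = 0.0727). Over these alternatives the value kept its sign.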

How the results depend on the processing

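Every called member kept its call and sign in each alternative that kept all libraries of the fit or left out the 3 E12.5 libraries, and in fits without 1 library except Sema3a at E14.5. With a pseudocount of 0.1, members called became 4 in ventral midbrain, 8 in dorsal midbrain and 9 at E14.5, and features called 784 (ventral midbrain), 1675 (dorsal midbrain), 348 (ventral forebrain), 877 (ventral hindbrain), 348 (alar plate) and 529 (stage). With voom, members called were 4, 8, 2 (alar plate) and 10 (E14.5), and features 807, 1784, 311, 946, 361 and 572, with 18 for the difference of differences. The stage split was 56 higher and 71 lower, and 434 and 138 with voom. With no fold limit, members called were 15, 23, 9, 13 and 10 in the 5 regions, 15 at E14.5 and 17 by stage, and features 4130, 8476, 1944, 5539, 1905, 4573 and 6827. Over all 4 stages features called were 252 in ventral midbrain, 231 in ventral hindbrain and 91 in alar plate. Without the 3 E12.5 libraries, 5 members were called in dorsal midbrain and 69 features for the difference of differences. E14.5 against E11.5 gave 8 members and 2087 features, and the difference of differences for E13.5 gave 0 features. The main counts of features were 397, 875, 133, 388, 150, 1615, 127 and 44. The causes were not tested. Median-of-ratios scaling moved the median of all features by at most 0.042.

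Leaving out 1 library gave 1 to 1 members in ventral midbrain, 3 to 5 in dorsal midbrain, 0 to 0 in ventral forebrain, 2 to 2 in ventral hindbrain, 1 to 1 in alar plate, 5 to 7 at E14.5, and 0 to 0 by stage and for the difference of differences. Features ran from 381 to 413, 774 to 1114, 127 to 156, 354 to 432, 137 to 169, 1372 to 1841, 96 to 152 and 9 to 69 in the same order.

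Same-numbered libraries of a stage correlated with medians of -0.011, 0.252, 0.210 and 0.081 from E11.5 to E14.5, against 0.003, -0.106, -0.088 and -0.051 for different numbers. Of 15 libraries, 5, 10, 15 and 12 correlated best with their own number, a hint from the data that numbers mark something shared from E12.5 on. No label says what a number shares, and 12, 18, 21 and 13 of 30 same-numbered pairs exceeded 0.1 and not all, so the numbers were not used as a pairing. The replicate block gave 196 features by stage and 29 for the difference of differences. It changed no call of a member.

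The planned fits with edgeR and DESeq2 were not run, because the deposited unit is RPKM. Low depth at E14.5 and E11.5 limits low genes: 3 reads correspond to 0.489 to 3.06 and 0.466 to 1.90 RPM, so differences of Sema3a, Sema3b, Sema3d and Sema3e rest on few reads.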
